A study of Homo sapiens with 56 samples.

Results

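The MYC, MAX and MXD network was examined as 10 genes listed by name: the activators MYC, MYCN and MYCL, their shared partner MAX, the repressors MXD1, MXD3, MXD4, MXI1 and MNT, and the related factor MLX. All 10 had an entry in the count tables of both cell lines, among the 59081 gene symbols that the tables share. The data were bulk RNA sequencing of 56 libraries from a pair of established cell lines, Mv4;11 and KG-1, each grown from a human acute myeloid leukaemia. Per the labels, cells were exposed for 3 h or 12 h to PMR-116 at 1 µM, to CX-5461 at 1 µM, or to the vehicle, a citric acid and sodium phosphate buffer. Both compounds inhibit RNA polymerase I, which makes the large ribosomal RNA precursor. PMR-116 and CX-5461 were each matched with separate vehicle libraries at both times, which gave 8 groups per line, with 3 libraries per group in Mv4;11 (24 in all) and 4 in KG-1 (32 in all). The labels name no engineered allele, and each line stands for a single leukaemia. All Mv4;11 libraries carry batch 1 and all KG-1 libraries batch 2 in the labels, and the name of the KG-1 table mentions trimming, so cell line, batch and trimming cannot be told apart. The labels do not say that replicates came from separate cultures, and p-values therefore measure only the spread between these samples, which may be technical.

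MYC proteins are basic helix-loop-helix leucine zipper factors that bind DNA as dimers with MAX, most strongly at the E-box CACGTG, and raise transcription of genes for growth, ribosome production and division. The MXD proteins and MNT compete for MAX, occupy the same motif and bring in the SIN3 and histone deacetylase corepressor, so that the balance of partners on MAX sets the output. MLX is a MAX-like partner for the glucose-sensing factors MondoA and ChREBP and also pairs with some MXD proteins and MNT. MYC is highly expressed in many acute myeloid leukaemias, and MXD1 is known as a gene that rises when myeloid cells mature.

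The network regulates itself through the same motif, so the promoters of its members were searched for CACGTG, which reads the same on both strands. RefSeq promoter windows (GRCh38.p14, 250 bases before to 50 bases after a start) were at hand for 9 of the 10 genes, in 12 windows, and 3 of these held the motif, 1 window each in MXD4, MNT and MLX. Of all 35116 windows of 300 bases in the table, 2548 (7.26%) held it. The stretches around the matches are shown with the motif in capitals and every sequence written 5′ to 3′ on the strand of its gene. In Mv4;11, 8 of 9 tested network genes changed at 3 h of each compound, so a change there did not set these 3 genes apart. The MXD4 stretch lies at chr4:2262302-2262359 on the minus strand, with the motif 238 bases before the start site. The MNT stretch lies at chr17:2401208-2401293 on the minus strand, 193 bases before, and the MLX stretch at chr17:42567010-42567095 on the plus strand, 50 bases before. A match describes letters in the window and does not show that a protein was bound there.
MXD4: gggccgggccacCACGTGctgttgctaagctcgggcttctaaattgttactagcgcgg
MNT: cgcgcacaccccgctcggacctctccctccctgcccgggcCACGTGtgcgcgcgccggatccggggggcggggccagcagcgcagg
MLX: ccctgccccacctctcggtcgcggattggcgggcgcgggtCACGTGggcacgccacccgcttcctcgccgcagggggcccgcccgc

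Library totals ranged from 28751951 to 41542587 estimated counts in Mv4;11 and from 31010467 to 72707768 in KG-1, and replicates of a group correlated at 0.980 to 0.990 in log2 CPM. Of 12 myeloid leukaemia markers, 11 averaged 1 CPM or more in Mv4;11, with CD34 at 0.126 CPM, and 10 did so in KG-1, with KIT at 0.135 and CSF1R at 0.438 CPM. The lymphocyte markers summed to 18.04 to 25.9 CPM in Mv4;11 and 222 to 266 CPM in KG-1, mostly NKG7 and CD3D, and the erythroid and megakaryocyte markers to at most 0.562 and 0.250 CPM. One Mv4;11 library stood apart, replicate 3 of the PMR-116 vehicle at 12 h, with 31395 genes detected, the most of any library. Results that use it are given without it where that bears on them.

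Among untreated cells, MYC was the most expressed of the 10 genes in both lines. Levels of different genes were compared as CPM (counts scaled to a common library size, the unit of all levels here) per kilobase of the longest principal transcript in GENCODE 29, averaged over vehicle libraries. MYC stood at 209 ± 9.30 CPM per kb in Mv4;11 (SD, n = 12) and 412 ± 37.4 in KG-1 (SD, n = 16). In Mv4;11 the order below it was MLX at 32.7, MAX at 30.8, MXI1 at 23.2, MXD3 at 15.03, MXD4 at 14.1, MNT at 9.01, MXD1 at 3.40 and MYCL at 2.65 CPM per kb. The ranges over libraries of neighbours in that order overlapped for MLX and MAX, MAX and MXI1, MXD3 and MXD4, and MXD1 and MYCL. In KG-1 the order was MAX at 45.9, MLX at 22.4, MXD3 at 16.9, MYCN at 11.6, MNT at 8.23, MXI1 at 7.97, MXD4 at 2.97 and MXD1 at 1.497 CPM per kb, with overlaps of MXD3 and MYCN, MYCN and MNT, and MNT and MXI1. Each line thus had counts of a different second MYC gene. MYCN had no count in any of the 24 Mv4;11 libraries, where 3 counts would be 0.0734 to 0.108 CPM, and it was at 17.2 to 43.3 CPM in KG-1. MYCL was at 4.41 to 10.0 CPM in Mv4;11, from 143 to 409 counts per library, while 26 of the 32 KG-1 libraries had no MYCL count and the rest at most 6. These 2 genes were therefore tested in 1 line each, which left 9 tested genes per line and 8 compared between lines.

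In Mv4;11, 8 of 9 tested network genes changed after 3 h of PMR-116 (24.1% of all genes tested were called), and 8 of 9 after 3 h of CX-5461 (11.7%). Calls used an adjusted p under 0.05 (edgeR's quasi-likelihood test). At 3 h of each compound 2 genes rose and 6 fell. Without any 1 library, 7 to 8 network genes were called at 3 h of PMR-116 and 6 to 7 at 3 h of CX-5461. Of all genes, 3461 to 4710 and 1573 to 1948 were then called, against 4939 and 2390. MYC fell the furthest under both compounds, MXD1 and MXD4, 2 repressors, rose under both, and the remaining calls were falls. After 12 h, 4 of 9 were called with PMR-116 (43.2% of all genes) and 3 of 9 with CX-5461 (31.4%), so at 12 h the share of network genes was close to that of all genes. By direction, 11% of all genes rose and 13.1% fell with PMR-116 at 3 h, 20.7% and 22.5% at 12 h, 5.05% and 6.61% with CX-5461 at 3 h, and 14.8% and 16.5% at 12 h. With library totals in place of TMM scaling, 4 network genes rose and 1 fell at 12 h of PMR-116 (2 and 2 with TMM) and 3 rose and 1 fell at 12 h of CX-5461 (2 and 1), while all genes went from 4241 higher and 4618 lower to 6275 and 3203, and from 3042 and 3388 to 4086 and 2591. Groups that did not overlap were found for 8, 4, 9 and 5 of the 9 genes (PMR-116 3 h, PMR-116 12 h, CX-5461 3 h, CX-5461 12 h), against 35.9%, 50.7%, 28.1% and 46% of all genes. The median log2 fold change of the 9 genes was -0.33 and -0.34 at 3 h and 0.06 and 0.05 at 12 h (PMR-116, then CX-5461), and that of all genes lay between -0.00057 and 0.04. In bulk libraries, fewer cells expressing a gene and less RNA of it per cell cannot be told apart.

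**Figure D1:**
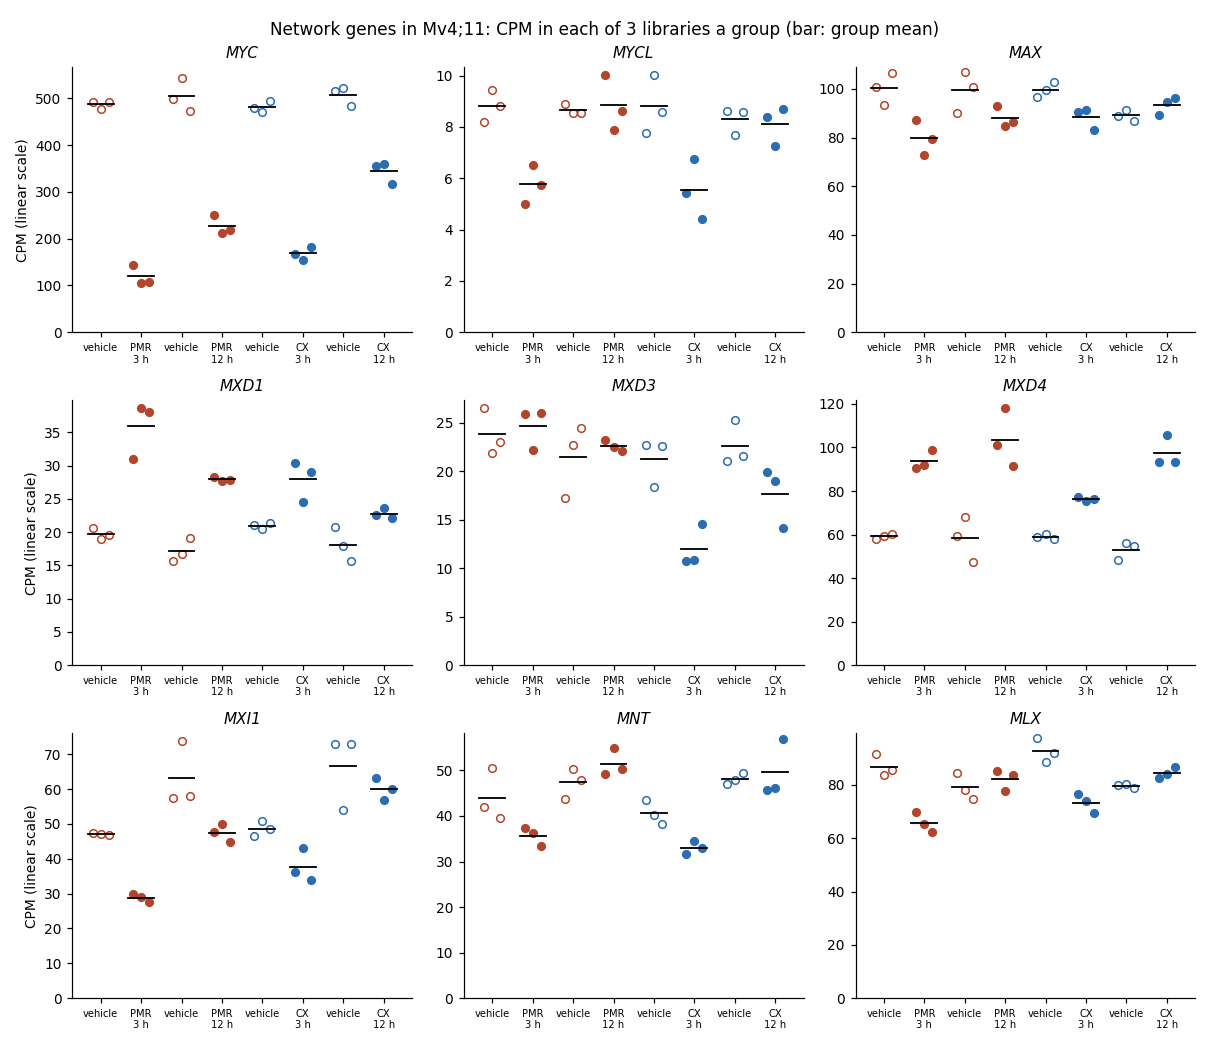
CPM (linear scale) of 9 network genes in every Mv4;11 library, by compound and time, with open points for vehicle, filled points for treated libraries and a bar at each group mean. MYC sits at 106 to 145 CPM in the 3 libraries with PMR-116 for 3 h against 478 to 493 CPM in their vehicle.

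MYC, on chromosome 8, was at 493, 478 and 492 CPM in the vehicle libraries of PMR-116 at 3 h and at 145, 106 and 108 CPM in the treated ones. All treated libraries were far below the vehicle, at 24.5% of its level. At 12 h of PMR-116 the treated libraries held 251, 211 and 218 CPM against 499, 544 and 473 CPM, which is 44.9% of the vehicle. With CX-5461, MYC was at 168, 155 and 182 against 480.3, 470.4 and 494 CPM at 3 h (34.97%) and at 356, 360.3 and 317 against 515, 522 and 484 CPM at 12 h (67.9%). The groups did not overlap in any of the 4 comparisons. The adjusted p with PMR-116 was 5.18e-13 at 3 h and 2.81e-10 at 12 h, and with CX-5461 2.74e-11 and 3.62e-05. Without the library that stood apart, the 12 h change with PMR-116 was a log2 fold change of -1.22 (adjusted p = 9.45e-10). MYCL, a paralogue with a narrower tissue range, had far fewer counts and fell at 3 h. It was at 5.01, 6.53 and 5.74 against 8.19, 9.45 and 8.81 CPM with PMR-116, and at 5.42, 6.76 and 4.41 against 7.76, 10.0 and 8.60 CPM with CX-5461. Its groups did not overlap at 3 h, with log2 fold changes of -0.61 ± 0.14 (SE) and -0.67 ± 0.14 (adjusted p = 0.00266 and 0.00265). At 12 h its 12 libraries lay between 7.26 and 10.0 CPM, the groups overlapped, and the 95% intervals of the log2 fold change were -0.24 to 0.31 and -0.31 to 0.24.

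MAX, on chromosome 14, is the shared partner of the MYC and MXD proteins. It fell with PMR-116 at 3 h, from 101, 93.2 and 107 to 87.2, 73.04 and 79.6 CPM, all treated libraries below the vehicle and at 79.7% of its level (log2 fold change -0.33 ± 0.07, adjusted p = 0.00131). That change was smaller than the change of MYC, its partner. In the other comparisons MAX did not pass the test. Its treated libraries with CX-5461 at 3 h were all below the vehicle, at 83.1 to 91.3 against 96.5 to 103 CPM (adjusted p = 0.120). At 12 h of PMR-116 they were at 84.9 to 93.2 against 90.2 to 107 CPM (-0.17, adjusted p = 0.0519), which DESeq2 called (adjusted p = 0.0276), as did edgeR with DESeq2's size factors (0.0363), while with library totals the log2 fold change was -0.00017 (adjusted p = 0.999). At 12 h of CX-5461 its log2 fold change was 0.07.

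MXD1 and MXD4 were the network genes that rose. MXD1, a repressor linked to the end of proliferation, was at 20.7, 18.98 and 19.5 CPM in the vehicle and 31.04, 38.6 and 38.1 CPM with PMR-116 at 3 h, and at 15.7, 16.7 and 19.1 against 28.3, 27.6 and 27.9 CPM at 12 h. These are 182% and 163% of the vehicle (adjusted p = 1.11e-06 and 4.45e-06). With CX-5461 it was at 30.5, 24.6 and 29.05 against 21.1, 20.4 and 21.4 CPM at 3 h and at 22.5, 23.7 and 22.1 against 20.7, 17.9 and 15.7 CPM at 12 h. The groups did not overlap in any comparison, but with CX-5461 at 12 h the lowest treated library, at 22.1 CPM, was close to the highest vehicle library, at 20.7 CPM (log2 fold change 0.33 ± 0.10, adjusted p = 0.0152). That call was lost without treated replicate 2 (adjusted p = 0.0800) or vehicle replicate 3 (0.167). MXD4, a repressor of the same family on chromosome 4, was at 57.8, 59.5 and 60.0 CPM in the vehicle and 90.4, 92.0 and 98.9 CPM with PMR-116 at 3 h. At 12 h it was at 101, 118 and 91.3 against 59.5, 68.3 and 47.2 CPM, which is 178% of the vehicle, or 0.83 on the log2 scale. Without the library that stood apart the log2 fold change was 0.68. With CX-5461 it was at 77.2, 75.4 and 76.2 against 59.1, 60.3 and 57.8 CPM at 3 h and 93.2, 106 and 93.4 against 48.2, 56.3 and 54.7 CPM at 12 h. Every treated library exceeded every vehicle library in the 4 comparisons. The smallest change, with CX-5461 at 3 h (log2 fold change 0.37 ± 0.10, adjusted p = 0.0140), was not called without vehicle replicate 3 (adjusted p = 0.0531). The MXD4 stretch shown above thus comes from a gene that rose, and those of MNT and MLX from genes that fell at 3 h. MXD1, which also rose, and MXI1 and MYCL, which also fell at 3 h, had no match in their windows. MXD1 shares 237 exon bases with SNRNP27 on the same strand.

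The other repressors did not follow MXD1 and MXD4. MXI1 fell with PMR-116 at 3 h, from 47.4, 47.2 and 46.8 to 29.8, 28.9 and 27.5 CPM, with all treated libraries below the vehicle at 60.9% of its level (adjusted p = 2.31e-05). At 12 h it was at 47.6, 49.8 and 44.8 against 57.5, 73.7 and 58.0 CPM (log2 fold change -0.41 ± 0.10, adjusted p = 0.00237), and -0.48 without the library that stood apart. With library totals in place of TMM scaling the 12 h change was -0.24 (adjusted p = 0.0623). With CX-5461 MXI1 was at 36.2, 43.01 and 33.9 against 46.6, 50.8 and 48.4 CPM at 3 h, without overlap (-0.37 ± 0.11, adjusted p = 0.0238), a call that was lost without treated replicates 1 or 3 or vehicle replicates 2 or 3 (adjusted p from 0.0588 to 0.140). At 12 h its groups overlapped, at 56.9 to 63.2 against 53.9 to 73.1 CPM.

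MXD3, a repressor expressed in dividing cells, was called with CX-5461 and not with PMR-116 at 3 h, a difference that was itself called when the compounds were compared. With CX-5461 it fell at 3 h from 22.7, 18.3 and 22.6 to 10.7, 10.8 and 14.5 CPM, which is 56.6% of the vehicle (log2 fold change -0.82 ± 0.14, adjusted p = 0.000337), with no overlap. With PMR-116 it was at 25.9, 22.2 and 25.99 against 26.5, 21.9 and 23.1 CPM, and the groups overlapped (0.05, interval -0.22 to 0.32). At 12 h of CX-5461 all treated libraries were below the vehicle, at 14.2 to 19.9 against 21.1 to 25.3 CPM, with an adjusted p of 0.0584 that DESeq2 put at 0.0313. At 12 h of PMR-116 the log2 fold change was 0.08. MXD3 shares 926 exon bases with RAB24 on the same strand and 1158 with PRELID1 on the other, so its counts may include reads of these genes.

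MNT, the largest and most widely expressed repressor of the group, and MLX both fell at 3 h and not at 12 h. MNT was at 37.5, 36.2 and 33.3 against 41.9, 50.5 and 39.6 CPM with PMR-116 and at 31.7, 34.4 and 32.96 against 43.5, 40.2 and 38.2 CPM with CX-5461. Neither pair overlapped, and both changes were -0.30 ± 0.09 on the log2 scale (adjusted p = 0.0172 and 0.0347). Both calls depended on single libraries. The first was lost without treated replicate 3 (adjusted p = 0.0949) or vehicle replicate 2 (0.156) and with only the 2 groups compared (0.0558), and the second without any 1 of 5 of its 6 libraries, all but vehicle replicate 3 (0.0594 to 0.154), and with library totals (0.0501). MLX was at 70.0, 65.4 and 62.2 against 91.5, 83.7 and 85.4 CPM with PMR-116 (75.8% of the vehicle, adjusted p = 3.28e-05) and at 76.7, 74.0 and 69.3 against 97.6, 88.7 and 92.0 CPM with CX-5461 (79.1%, adjusted p = 0.000471), again without overlap. At 12 h the log2 fold changes of MNT were 0.12 and 0.05 and those of MLX 0.06 and 0.09, none called. With library totals, which moved the median of all genes from 0.0093 to 0.18 with PMR-116 and from 0.04 to 0.12 with CX-5461 at 12 h, MLX was called higher at 12 h of both compounds (0.23 and 0.17) and MNT at 12 h of PMR-116 (0.29), values to be read against those medians. MNT shares 1065 exon bases with an antisense gene and MLX 770 with PSMC3IP on the other strand, and the strand setting of the counting is not given in the sources used here.

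**Figure D2:**
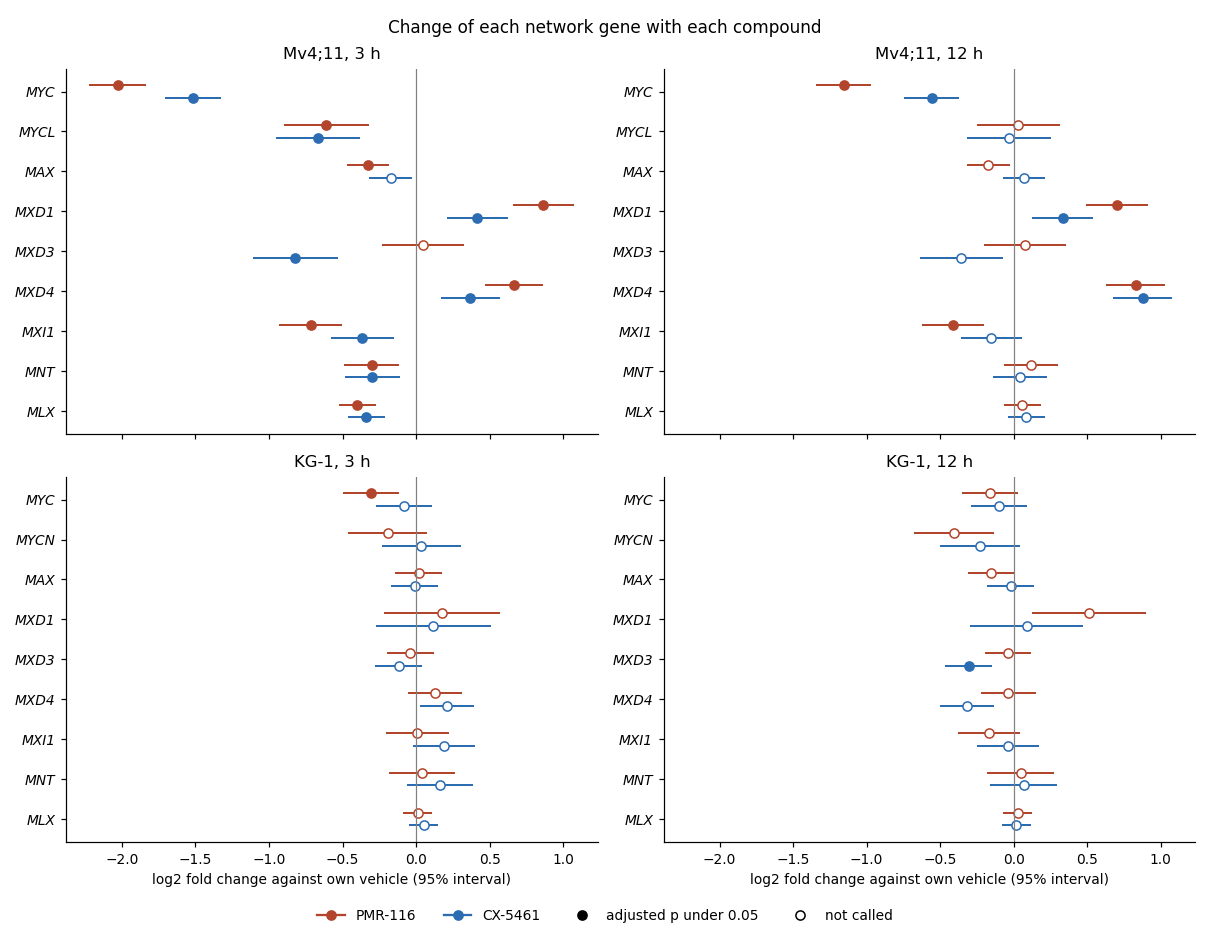
Log2 fold change of each network gene against its own vehicle (x axis) with its 95% interval, PMR-116 in red and CX-5461 in blue, by line and time. Filled points passed the test at an adjusted p under 0.05: 8 per compound in Mv4;11 at 3 h, but 1 with PMR-116 at 3 h (MYC) and 1 with CX-5461 at 12 h (MXD3) in KG-1.

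In KG-1 few of the network genes were called. With PMR-116 1 of 9 genes was called at 3 h (7.33% of all genes) and 0 of 9 at 12 h (9.46%), and with CX-5461 0 of 9 at 3 h (3.44%) and 1 of 9 at 12 h (2.54%). For the counts of 0 from edgeR, 2 genes had an unadjusted p under 0.05 with PMR-116 at 12 h, MXD1 and MYCN, of which DESeq2 called MYCN, and 1 gene with CX-5461 at 3 h, MXD4, with none called by DESeq2. With replicate number added to the edgeR fit (a replicate block), 4 genes were called with PMR-116 at 12 h. These were MYCN, MAX, MXD1 and MYC (adjusted p from 0.000411 to 0.0472). That fit called 3198 of all genes, against 1762 without the block. The labels do not state such a pairing. By direction, 3.61% of all genes rose and 3.71% fell with PMR-116 at 3 h, 4.73% and 4.74% at 12 h, 1.85% and 1.58% with CX-5461 at 3 h, and 1.36% and 1.18% at 12 h. Groups were free of overlap for 1, 0, 1 and 1 of the 9 genes in the same order, against 13.3%, 13%, 10.5% and 7.56% of all genes.

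**Figure D3:**
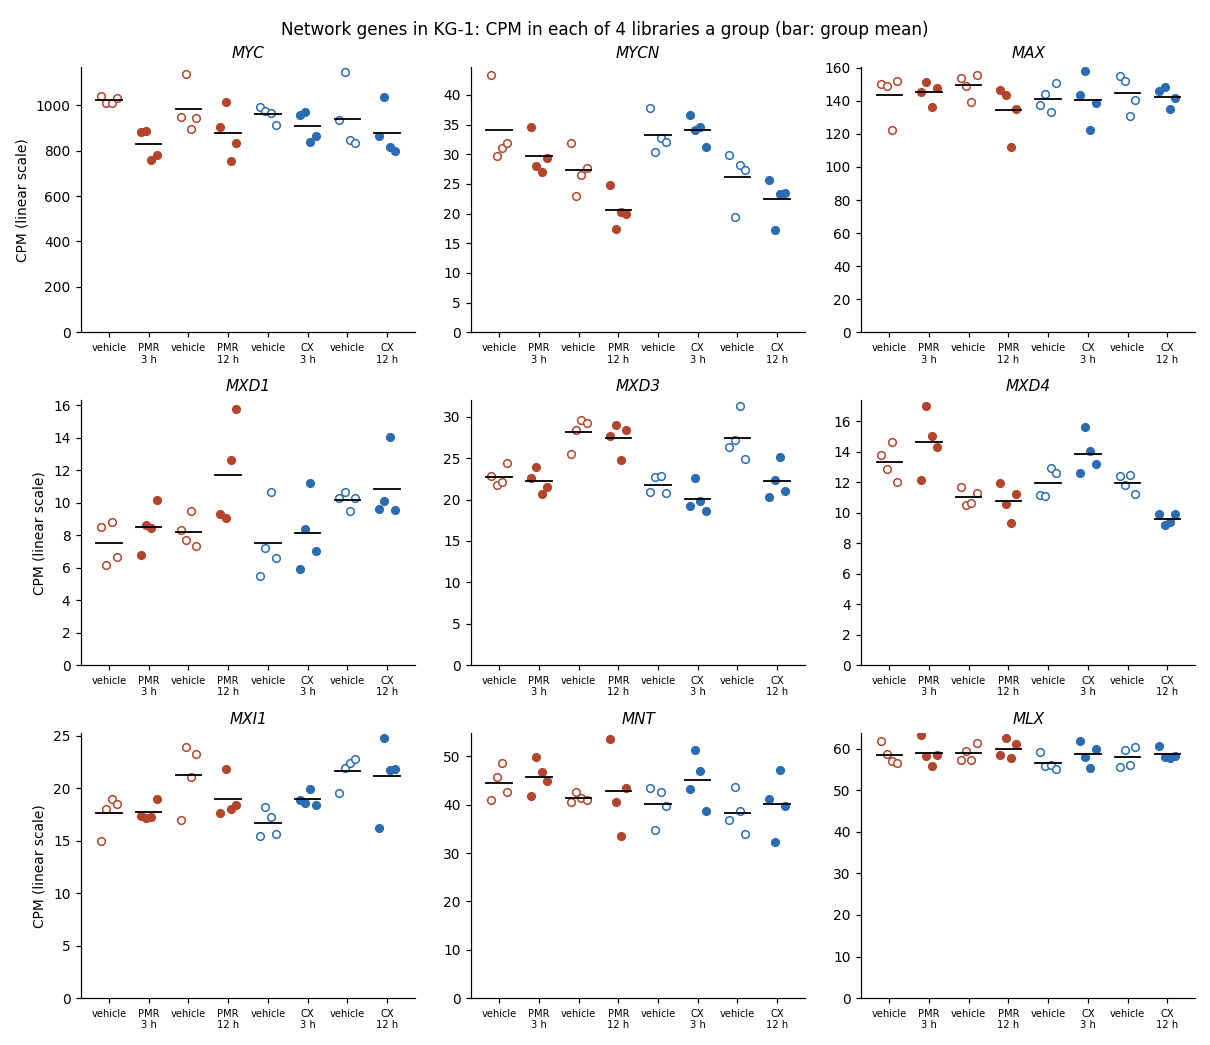
CPM (linear scale) of 9 network genes in every KG-1 library, drawn as for Mv4;11. MYC sits at 759 to 888 CPM with PMR-116 for 3 h against 1008 to 1039.9 CPM in its vehicle, and most other groups overlap.

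MYC in KG-1 was at 1039.9, 1009.9, 1008 and 1030.1 CPM in the vehicle of PMR-116 at 3 h and at 884, 888, 759 and 780.2 CPM in the treated libraries, which were all below and at 81.0% of its level (log2 fold change -0.30 ± 0.09, adjusted p = 0.0429). That call was not kept without any 1 of 7 of the 8 libraries (adjusted p from 0.0506 to 0.137), all but treated replicate 2. At 12 h of PMR-116 the treated libraries were at 905, 1015, 753 and 833 CPM against 946, 1139, 893 and 945 CPM, overlapping (-0.16, interval -0.35 to 0.02). With CX-5461 the log2 fold changes were -0.08 (interval -0.27 to 0.10) and -0.10 (-0.28 to 0.09), and the groups overlapped at both times.

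MYCN, the neuroblastoma-associated paralogue on chromosome 2, was expressed in KG-1 alone of these lines. With PMR-116 at 12 h it was at 24.8, 17.5, 20.3 and 19.96 CPM against 31.9, 22.9997, 26.5 and 27.7 CPM. The highest treated library lay above the lowest vehicle library, and the log2 fold change of -0.41 ± 0.13 had an adjusted p of 0.0535. DESeq2 put it at 0.0245, and edgeR called it without treated replicate 1 (0.0227) or without vehicle replicate 2 (0.0335). With the replicate block edgeR put it at 0.000411. In the other 3 comparisons MYCN had log2 fold changes of -0.19, 0.04 and -0.23, none called. It shares 98 exon bases with its antisense gene MYCNOS, which averaged at most 0.346 CPM in any group.

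Among the KG-1 repressors, MXD3 was called with CX-5461 at 12 h. It was at 20.3, 22.3, 25.2 and 21.05 CPM against 26.3, 27.2, 31.3 and 24.9 CPM, which is 81.0% of the vehicle (log2 fold change -0.30 ± 0.08, adjusted p = 0.0275). One treated library, at 25.2 CPM, exceeded the lowest vehicle library at 24.9 CPM, and the call was lost without any 1 of 5 libraries (treated replicates 1, 2 and 4, vehicle replicates 2 and 3, adjusted p from 0.0528 to 0.143), without a filter on low counts (0.0726) and with only the 2 groups compared (0.214). MXD4 in the same comparison was at 9.88, 9.18, 9.41 and 9.89 against 12.4, 11.8, 12.5 and 11.2 CPM, with every treated library below the vehicle (-0.32 ± 0.09, adjusted p = 0.0527), and DESeq2 called it (0.0159). Its direction there was opposite to the rise in Mv4;11. At 3 h the KG-1 means of MXD4 were instead above the vehicle, with overlap and no call. They were 13.9 against 11.9 CPM with CX-5461 and 14.6 against 13.3 CPM with PMR-116. At 12 h of PMR-116 they were 10.8 against 11.0 CPM. MXD1 was at 9.32, 9.09, 12.7 and 15.8 against 8.35, 7.69, 9.47 and 7.35 CPM with PMR-116 at 12 h, higher on average but overlapping (0.51 ± 0.19, adjusted p = 0.0980). MAX, MXI1, MNT and MLX had log2 fold changes between -0.17 and 0.19 in the 4 KG-1 comparisons, none called. MLX varied the least, from 55.1 to 63.2 CPM over all 32 libraries, and its 95% intervals lay between -0.08 and 0.15.

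PMR-116 and CX-5461 were given at the same dose and times, so their effects were compared as differences of log2 fold changes, in 4 comparisons, each compound against its own vehicle. In Mv4;11, 2 of 9 genes differed at 3 h (1.34% of all genes) and 1 of 9 at 12 h (5.11%). MYC fell further with PMR-116, by -0.51 (interval -0.77 to -0.26, adjusted p = 0.0451) at 3 h and -0.60 (-0.85 to -0.35, adjusted p = 0.00630) at 12 h. The 3 h difference was not called without any 1 of 10 of its 12 libraries (adjusted p from 0.0669 to 0.152), the exceptions being PMR-116 treated replicate 1 and CX-5461 treated replicate 2. MXD3 differed by 0.87 at 3 h (0.48 to 1.26, adjusted p = 0.0267), since it fell with CX-5461 alone, a call lost without any 1 of 7 of the 12 libraries (0.0739 to 0.0852). The remaining genes were not called at 3 h: MXD1 by 0.45 (interval 0.17 to 0.73), MXD4 by 0.30 (0.03 to 0.57), MXI1 by -0.35 (-0.64 to -0.06), MAX by -0.15 (-0.35 to 0.04), MYCL by 0.06 (-0.34 to 0.45), MNT by -0.0037 (-0.26 to 0.25) and MLX by -0.06 (-0.23 to 0.11). At 12 h the intervals not called were 0.09 to 0.66 for MXD1, 0.04 to 0.82 for MXD3, -0.44 to -0.05 for MAX, -0.32 to 0.22 for MXD4, -0.55 to 0.03 for MXI1, -0.33 to 0.45 for MYCL, -0.18 to 0.32 for MNT and -0.20 to 0.14 for MLX. In KG-1 edgeR called 0 of 9 at 3 h (0.0107% of all genes) and 0 of 9 at 12 h (0.0483%), as did DESeq2, with 0 and 2 genes (MXD3 and MXD4) at an unadjusted p under 0.05. The interval for MYC in KG-1 was -0.48 to 0.04 at 3 h, which overlapped that in Mv4;11, and -0.32 to 0.19 at 12 h, which did not. Whether the difference between compounds itself differed between the lines was not tested.

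The vehicle groups of the 2 compounds gave the background of such differences. No gene was called between them at 3 h or 12 h in either line (0% of genes in each of the 4 comparisons, edgeR), where 762 and 858 genes in Mv4;11 and 838 and 479 in KG-1 had an unadjusted p under 0.05 at 3 h and 12 h, and DESeq2 called 1, 0, 2 and 1. The largest network difference between vehicles was -0.31 for MXD1 in KG-1 at 12 h, and MYC differed by 0.02, -0.0056, 0.09 and 0.06 in the same order.

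In Mv4;11 several effects differed between 3 h and 12 h. The effect at 12 h minus that at 3 h was called for 4 of 9 genes with PMR-116 (27.6% of all genes, 12.2% higher) and 4 of 9 with CX-5461 (16.7%, 7.59% higher), and all 8 differences were upward. For MYC, MYCL, MNT and MLX, which had fallen at 3 h, this was towards the vehicle, and for MXD4 with CX-5461, which had risen, away from it. MYC moved up by 0.87 ± 0.13 and 0.96 ± 0.13 on the log2 scale (adjusted p = 1.34e-05 and 1.20e-05), MLX by 0.46 ± 0.09 and 0.42 ± 0.09, and MYCL by 0.64 and 0.63. MNT was called with PMR-116 alone (0.42, against 0.34 and an adjusted p of 0.0706 with CX-5461), and MXD4 with CX-5461 alone (0.51, against 0.16 with PMR-116). MYC therefore remained below its vehicle at 12 h, whereas MYCL, MNT and MLX did not pass the test there. The calls of MYCL were lost without any 1 of 8 libraries with CX-5461 (adjusted p from 0.0513 to 0.108) and without replicate 1 of the treated group at 12 h (0.0603) or at 3 h (0.0525) with PMR-116. That of MNT was lost without treated replicate 2 at 12 h (0.0769) or vehicle replicate 2 at 3 h (0.0645), and that of MXD4 without treated replicate 2 at 12 h (0.0570). In KG-1 edgeR called 0 of 9 with either compound (1.69% and 0.263% of all genes), with 0 and 1 gene (MXD4, -0.53) at an unadjusted p under 0.05, and DESeq2 called that 1 with CX-5461.

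Vehicle cells themselves changed over the same hours. In Mv4;11 2 of 9 genes differed between 12 h and 3 h of vehicle (12.9% of all genes), MXI1 by 0.44 (adjusted p = 0.000544) and MLX by -0.18 (0.00860). In KG-1 3 of 9 differed (31.6%), MXD3 by 0.32 (5.08e-05), MXI1 by 0.33 (0.00102) and MYCN by -0.33 (0.00734). MXI1 was thus higher at 12 h in vehicle cells of both lines. MYC differed by 0.06 in Mv4;11 and -0.05 in KG-1, neither called.

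The difference in response between the lines was tested in a joint fit as the Mv4;11 effect minus the KG-1 effect, for 8 genes. With PMR-116 at 3 h 4 of 8 were called (6.94% of all genes, 3.19% lower): MYC by -1.67 ± 0.14 (adjusted p = 2.30e-12), MXI1 by -0.68, MLX by -0.36 and MXD4 by 0.59. At 12 h 2 of 8 were called (25.4%, 13.2% lower), MYC by -0.93 ± 0.14 and MXD4 by 0.93 ± 0.13. With CX-5461 at 3 h 4 of 8 were called (3.07%, 1.5% lower): MYC by -1.40 ± 0.14, MXD3 by -0.67, MXI1 by -0.52 and MLX by -0.36. At 12 h these were MYC by -0.43 ± 0.14 (adjusted p = 0.0229) and MXD4 by 1.22 ± 0.13 (2 of 8, 16.2%, 9.04% lower). MYC fell further in Mv4;11 in each of the 4 comparisons, although at 12 h of CX-5461 the call was lost without the libraries numbered 3 (adjusted p = 0.0748). The calls of MXD3 (CX-5461 3 h, 0.0643 to 0.128 without the libraries numbered 1 or 2), MXD4 (PMR-116 3 h, 0.0666 to 0.0869 without those numbered 1 or 3) and MXI1 (PMR-116 3 h, 0.0725 without those numbered 3, and CX-5461 3 h, 0.114 to 0.386 without those numbered 1, 3 or 4) were also lost. Only KG-1 has libraries numbered 4.

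The genes around the network were read as lists. Among 58 MYC-activated targets tested, 0 rose and 38 fell in Mv4;11 with PMR-116 at 3 h and 0 and 57 at 12 h, and 0 and 24, then 0 and 56, with CX-5461, where 13.1% and 22.5%, then 6.61% and 16.5%, of all genes fell. Their median log2 fold change went from -0.30 at 3 h to -1.06 at 12 h with PMR-116 and from -0.15 to -0.62 with CX-5461, whereas that of MYC itself went the other way. Early falls included TFAP4, a helix-loop-helix factor, from 47.9 ± 1.63 to 18.3 ± 4.61 CPM (SD, n = 3) with PMR-116, SLC19A1, the folate carrier (-1.30 with PMR-116, -0.89 with CX-5461), and CCND2, a G1 cyclin (-1.12 and -1.09). The deepest falls at 12 h of PMR-116 were the cell cycle regulators E2F1, from 63.1 ± 3.54 to 13.8 ± 1.44 CPM, E2F2 (-2.14) and CDC25A (-1.89). At 12 h 35 of the 58 fell further with PMR-116 than with CX-5461 and 0 less (3.84% of all genes were lower in that comparison), while at 3 h edgeR called none. In KG-1 2 rose and 2 fell with PMR-116 at 3 h, 5 and 5 at 12 h, 3 and 1 with CX-5461 at 3 h, and 5 and 0 at 12 h, with medians between -0.02 and 0.04. Of all genes in KG-1, 3.61% rose and 3.71% fell, then 4.73% and 4.74%, 1.85% and 1.58%, and 1.36% and 1.18%, in the same order. SLC19A1 was among the KG-1 falls, from 102 ± 11.4 to 48.2 ± 9.72 CPM (SD, n = 4) with PMR-116 and from 97.9 ± 8.68 to 61.8 ± 6.47 with CX-5461 at 3 h, and CDC25A among the rises (0.40 and 0.41). The effect on 22, 56, 6 and 50 of the 58 was lower in Mv4;11 than in KG-1 (PMR-116 3 h, PMR-116 12 h, CX-5461 3 h, CX-5461 12 h). Of all genes, 3.19%, 13.2%, 1.5% and 9.04% were lower in that order. Without any compound, 37 of the 58 were lower and 4 higher at 12 h than at 3 h of vehicle in KG-1 (15.4% of all genes were lower). In Mv4;11 vehicle 19 were lower and 0 higher (12.9% of all genes differed in either direction).

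Of 7 genes that MYC is known to repress, 5 rose and 0 fell in Mv4;11 in 3 comparisons and 6 and 0 with CX-5461 at 12 h, with medians of 1.09, 1.10, 1.11 and 1.40 (PMR-116 3 h, PMR-116 12 h, CX-5461 3 h, CX-5461 12 h), where 11%, 20.7%, 5.05% and 14.8% of all genes rose. The largest change at 3 h was that of CDKN1A, an inhibitor of cyclin-dependent kinases and also a p53 target (2.50 with PMR-116, 3.44 with CX-5461). GADD45A, a stress gene that p53 also activates, rose in all 4 comparisons (1.69 and 1.10 with PMR-116, 2.24 and 1.40 with CX-5461). CDKN1C rose with PMR-116 at 12 h, from 1.03 ± 0.255 to 8.24 ± 1.53 CPM (SD, n = 3), and CDKN1B with PMR-116 at 3 h and CX-5461 at both times by 0.54, 0.35 and 0.55. In KG-1 0 of 6 were called at 3 h of either compound and 2 of 6 rose at 12 h of each, with PMR-116 CDKN1C, from 3.26 ± 0.669 to 5.36 ± 0.315 CPM (SD, n = 4), and CDKN1B (0.26). Of all genes there, 7.33% and 3.44% were called at 3 h, and 4.73% and 1.36% rose at 12 h (PMR-116, then CX-5461).

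The 5 listed genes that respond to MondoA or ChREBP, the partners of MLX, were read next to it. In Mv4;11 2 rose with PMR-116 at 3 h and 5 at 12 h (4 without the library that stood apart), and 1 and 4 with CX-5461, and none fell. Of all genes, 11% and 20.7% rose with PMR-116 at 3 h and 12 h, and 5.05% and 14.8% with CX-5461. The medians of the 5 listed genes were 0.33 and 1.15 with PMR-116 and 0.19 and 0.71 with CX-5461. TXNIP, which restrains glucose uptake, stood at 725 ± 32.1 against 310.4 ± 29.6 CPM at 12 h of PMR-116 (SD, n = 3) and 610.0 ± 14.9 against 322 ± 4.10 at 12 h of CX-5461. Its relative ARRDC4 rose at both times, by 1.29 and 1.76 with PMR-116 and 0.41 and 0.93 with CX-5461, and the transcription factor KLF10 by 0.51 and 1.15 with PMR-116 and 0.71 at 12 h of CX-5461. In KG-1 none of the 5 was called with either compound, where 2.54% to 9.46% of all genes were called. Of the wider network partners, MGA, a MAX-binding repressor, fell at 3 h in Mv4;11, from 116 ± 13.6 to 78.8 ± 6.02 CPM with PMR-116 and from 119.6 ± 3.63 to 88.4 ± 6.38 with CX-5461, and MLXIP, which encodes MondoA, rose at 12 h (0.22 and 0.31).

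The corepressor that MXD proteins recruit moved in both directions. Of 14 SIN3 and histone deacetylase genes in Mv4;11, 3 rose and 0 fell with PMR-116 at 3 h and 4 rose and 7 fell at 12 h, and 0 and 1, then 2 and 8, with CX-5461. Of all genes, 11% rose and 13.1% fell with PMR-116 at 3 h and 20.7% and 22.5% at 12 h, and 5.05% and 6.61%, then 14.8% and 16.5%, with CX-5461, so the 4 of 14 that rose were near the share of all genes. Without the library that stood apart 1 rose and 8 fell at 12 h of PMR-116, and with library totals 6 rose and 5 fell there and 5 rose and 4 fell at 12 h of CX-5461. Their median at 12 h of PMR-116 was -0.16 and with library totals 0.01, so its sign depended on the scaling. The chaperones RBBP7, from 181 ± 9.17 to 103 ± 2.38 CPM, and RBBP4, from 347 ± 21.2 to 235 ± 2.72 CPM (SD, n = 3), were among the falls at 12 h of PMR-116, as was SAP30 (-0.65, and -1.25 with CX-5461). In KG-1 2 of 14 were called, SUDS3 (0.21) and ARID4A (0.32), both higher with PMR-116 at 3 h, and 0 in the other 3 comparisons by edgeR. Of all genes there, 3.61% rose with PMR-116 at 3 h, and 2.54% to 9.46% were called in the other 3 comparisons.

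Among genes that act on MYC itself, more were called lower than higher at 12 h in Mv4;11. Of all genes, 22.5% with PMR-116 and 16.5% with CX-5461 were lower at 12 h, and 13.1% and 6.61% at 3 h. Of 19 coactivators and cofactors 1 rose and 13 fell with PMR-116 and 1 and 10 with CX-5461 at 12 h, against 1 and 5, and 0 and 0, at 3 h. They included the histone acetyltransferase KAT2A, from 154 ± 12.1 to 76.8 ± 1.60 CPM (SD, n = 3), and the helicase RUVBL2 (-0.81 with PMR-116, -0.55 with CX-5461). Of 21 tested regulators of MYC protein turnover 2 rose and 11 fell with PMR-116 and 1 and 10 with CX-5461 at 12 h, and 3 and 6, then 1 and 6, at 3 h. SKP2, a ubiquitin ligase subunit, fell at 12 h from 81.2 ± 3.49 to 24.6 ± 1.87 CPM with PMR-116 and from 79.7 ± 2.49 to 36.6 ± 2.00 with CX-5461. PIM1, a kinase that stabilises MYC, fell at 3 h from 75.8 ± 3.07 to 41.8 ± 2.84 CPM and from 82.2 ± 2.41 to 43.7 ± 4.37 CPM. In KG-1 PIM1 also fell, from 773 ± 76.1 to 578 ± 48.7 CPM with PMR-116 at 3 h (SD, n = 4) and from 739 ± 50.9 to 609 ± 26.7 with CX-5461. Of 18 binders of MYC mRNA and regulators of its transcription, 2 rose and 7 fell with PMR-116 and 0 and 2 with CX-5461 at 3 h, and 1 and 10, then 1 and 7, at 12 h. IGF2BP1, which protects MYC mRNA, fell with PMR-116 by 0.70 at 3 h and by 1.06 at 12 h on the log2 scale, and in KG-1 its relative IGF2BP3 fell by 0.64 and 0.60. The 12 h medians were -0.30 and -0.23 for the cofactors, -0.25 and -0.19 for the turnover genes and -0.28 and -0.10 for the regulators (PMR-116, then CX-5461). With library totals they were -0.13 and -0.15, -0.08 and -0.10, and -0.10 and -0.01, and with PMR-116 the counts at 12 h were then 3 cofactors higher and 9 lower, 2 and 8 turnover genes, and 3 and 7 regulators. Without the library that stood apart, 4 cofactors rose and 12 fell at 12 h of PMR-116, 2 and 12 of the turnover genes and 1 and 11 of the regulators. PVT1, the noncoding gene next to MYC, did not follow it: it rose with CX-5461 from 29.9 ± 1.70 to 40.3 ± 2.93 CPM at 3 h and from 30.6 ± 0.882 to 48.03 ± 3.00 CPM at 12 h, and with PMR-116 at 12 h by 0.30.

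**Figure D4:**
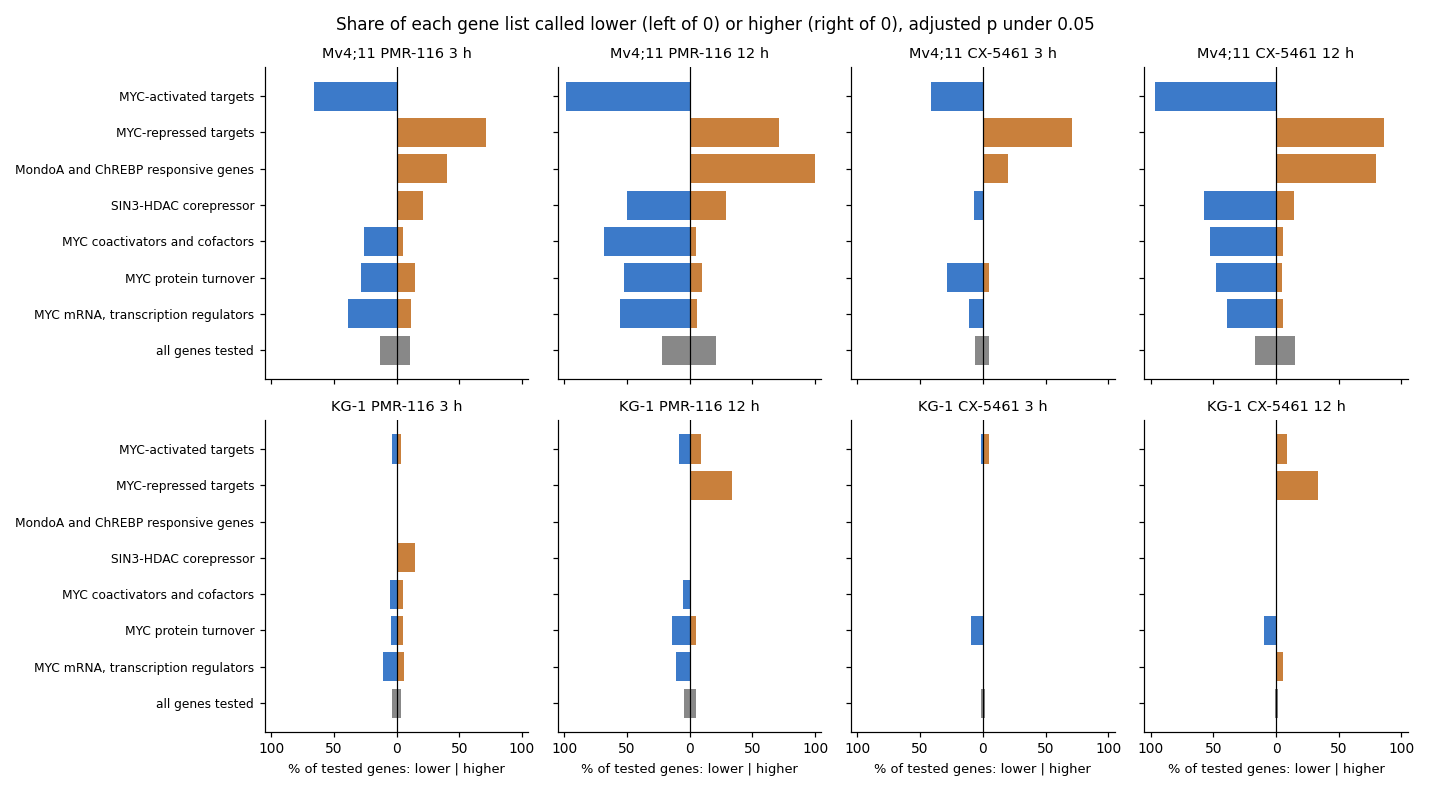
Percent of the tested genes of each list called lower (bars left of 0) or higher (right of 0) against vehicle, for each compound, time and line, with all tested genes in grey. MYC-activated targets in Mv4;11 go from 38 and 24 of 58 lower at 3 h (PMR-116, CX-5461) to 57 and 56 of 58 at 12 h, whereas KG-1 bars stay short apart from 2 of 6 MYC-repressed targets higher at 12 h.

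Across libraries, other network genes varied with MYC in Mv4;11. Over the 24 libraries the Pearson correlation of log2 CPM with MYC was -0.92 for MXD1, 0.81 for MXI1, 0.74 for MLX, 0.74 for MAX, 0.71 for MYCL and -0.70 for MXD4. It was 0.54 for MNT and 0.26 for MXD3. These points share the treatment groups, and with the group means removed the values were -0.18, -0.01, 0.34, 0.45, -0.45, 0.10, -0.15 and 0.44 in that order. With all differences kept, MXI1 ranked 311, MLX 530, MAX 533 and MYCL 658 by r among 10747 genes of at least 5 CPM. In KG-1, over 32 libraries, the highest were 0.47 for MAX and -0.41 for MXD1, and MYC and MYCN stood at 0.05. Among 10747 genes of at least 5 CPM in Mv4;11 the 5 closest to MYC were UNC93B1 (r = 0.98), NFYA (0.97), ARFRP1 (0.97), RNF41 (0.97) and SNHG15 (0.96). Over the 12 vehicle libraries alone these genes had r between -0.21 and 0.64. Among 10462 genes in KG-1 they were LILRA2 (0.86), SELPLG (0.86), FAM53B (0.84), SH2B3 (0.84) and FAM30A (0.83), with r from 0.67 to 0.89 over the 16 vehicle libraries. No gene was in both sets of 5, and no p is given, since the libraries of a group are not independent of its treatment.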

How the data were processed

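RNA was extracted with the Nucleospin RNA kit and made into polyadenylated, strand-marking libraries with Illumina Stranded mRNA Prep, per the labels' protocols. The deposited values are estimated counts per gene symbol that the authors made with Salmon 1.5.2, per the submitters' processing notes, which also name DESeq2 and the build GRCh38.p13. No source used here gives the annotation release or the strand setting. Of the columns for Mv4;11, 24 match no sample and were not used. Of the values above 0, 99.98% in Mv4;11 and 100% in KG-1 were not whole (tolerance 1e-06), and they were rounded.

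Each line was fitted with edgeR 4.0.16 (R 4.3.3), 8 groups together, after filterByExpr (minimum count 10, minimum total 15) and TMM scaling, with the quasi-likelihood test and Benjamini-Hochberg adjustment over the 20495 genes tested in Mv4;11, 18618 in KG-1 and 23759 in a joint fit for differences between lines. SE is the absolute log2 fold change divided by the square root of F, and 95% intervals use normal quantiles. The scripts were tested on simulated counts. Totals of 28751951 to 72707768 counts put the floor of 3 counts at 0.0401 to 0.108 CPM, and no 2 replicates agreed within sampling noise (chi-square per degree of freedom at least 6.48). Correlations used log2 CPM with a prior count of 2.

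Alternatives were DESeq2 1.42.0, other scalings, no filter, fitting only the 2 groups compared, a replicate block and leaving out each library. Those on gene lists, and the run without 1 library, were chosen after seeing the data. Genes were named by rule: every network gene, up to 3 called genes per list and comparison with the largest change and a mean of at least 5 CPM in the higher group, and the 5 genes most correlated with MYC per line. The lists were wider network partners, MondoA and ChREBP responsive genes, SIN3 and histone deacetylase corepressor, MYC coactivators, MYC protein turnover, regulators of MYC mRNA and transcription, noncoding genes at the MYC and MYCN loci, and MYC-activated and MYC-repressed targets. The members and lists were chosen with earlier results of these data known.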

Additional observations from a re-analysis of the deposited data

Results flagged for a closer look

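In 5 of 72 groups of 4 KG-1 libraries, 1 library lay far from the other 3 by a gap test that chance alone passes in about 1 in 20 groups. For MAX in the vehicle of PMR-116 at 3 h, replicate 3 was at 122 CPM and the others at 149 to 152. In the same vehicle group, MYCN was at 43.3 CPM in replicate 1 and 29.7 to 31.9 in the others. With CX-5461 at 12 h, MLX was at 60.6 CPM in treated replicate 1 against 57.7 to 58.1, and MXD1 at 14.1 CPM in treated replicate 3 against 9.58 to 10.1. With PMR-116 at 3 h, MXI1 was at 19.02 CPM in treated replicate 4 against 17.2 to 17.4. Leaving each out changed no call of that gene in its comparison.

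For 20 effects the difference between times or between lines itself passed the test, with values on the log2 scale. Between 12 h and 3 h in Mv4;11, with PMR-116 then CX-5461, these were MYC (0.87 and 0.96), MYCL (0.64 and 0.63) and MLX (0.46 and 0.42), MNT with PMR-116 (0.42) and MXD4 with CX-5461 (0.51). Between the lines, as Mv4;11 minus KG-1, MYC differed by -1.67 and -0.93 with PMR-116 at 3 h and 12 h and by -1.40 and -0.43 with CX-5461. MXD4 differed by 0.59 and 0.93 with PMR-116 at 3 h and 12 h and by 1.22 with CX-5461 at 12 h. At 3 h MXI1 differed by -0.68 with PMR-116 and -0.52 with CX-5461, MLX by -0.36 with both, and MXD3 by -0.67 with CX-5461. Cell line, batch and trimming cannot be told apart in the differences between lines.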

How the results depend on the processing

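Of 176 effects and differences of network genes, 136 stayed on the same side of the threshold under every alternative run, and no called one changed sign. Of 48 called, 29 were kept throughout and 19 were lost under at least 1 alternative, and 21 that were not called were gained under at least 1. In KG-1 the number of genes called depended on the method, and the cause was not tested. With CX-5461 at 12 h, 473 genes were called, against 803 with DESeq2, 268 without a filter on low counts, 71 with only the 2 groups compared and 288 to 401 without 1 library (lowest without treated replicates 1 or 2 or vehicle replicates 3 or 4). At 3 h 640 were called, against 1105, 371, 332 and 362 to 582 (lowest without treated replicates 1 or 2 or vehicle replicates 2, 3 or 4). With PMR-116 at 12 h 1762 were called, against 1152 without a filter and 911 with only the 2 groups compared, and at 3 h 1364, against 901 to 1279 without 1 library (901 without vehicle replicate 2). In Mv4;11 with CX-5461 at 3 h 2390 were called and 1573 to 1948 without 1 library (1573 without treated replicate 3).

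The number of KG-1 network genes called was 1 with CX-5461 at 12 h, against 2 with DESeq2 and with library totals, 0 without a filter and with only the 2 groups compared, and 0 to 1 without 1 library. With PMR-116 it was 0 at 12 h, against 1 with DESeq2 and 0 to 1 without 1 library, and 1 at 3 h, against 0 without a filter and 0 to 1 without 1 library. For CX-5461 at 12 h minus 3 h it was 0, against 1 with DESeq2. MYC in KG-1 with PMR-116 at 3 h had a log2 fold change of -0.30 without a filter (adjusted p = 0.0594) and of -0.34 to -0.27 without 1 library. The difference between compounds in Mv4;11 at 3 h was called for 2 genes, and for 0 to 3 without 1 library. Leaving out 1 replicate number gave 2 to 5 genes that differed between lines with PMR-116 at 3 h (4 with all), 2 to 3 with CX-5461 at 3 h (4) and 1 to 2 with CX-5461 at 12 h (2). Numbers 1 to 3 were left out of both lines, and number 4 of KG-1, which alone has it. Library totals moved the split of higher and lower calls in Mv4;11 from 4241 and 4618 to 6275 and 3203 with PMR-116 at 12 h and from 3042 and 3388 to 4086 and 2591 with CX-5461 at 12 h.

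The labels do not say that replicate numbers pair the libraries, and the main fit did not pair them. Same-numbered libraries correlated at -0.01 to 0.24 after removal of group means. In none of 8 comparisons were all pairs over 0.1, although in 4 every library correlated best with its own number. In KG-1 with PMR-116 at 3 h same-numbered libraries correlated at 0.09 to 0.18, and others at most at 0.0030. These values do not show that the libraries were unpaired. With the replicate block, KG-1 calls rose to 2599 and 3198 genes with PMR-116 at 3 h and 12 h and to 1733 and 1313 with CX-5461, and the network genes called to 4 with PMR-116 at 12 h, to 2 with CX-5461 at 12 h and to 1 for CX-5461 at 12 h minus 3 h. The 4 genes that the block added in KG-1 with PMR-116 at 12 h were MYCN at -0.41 (adjusted p = 0.000411), MAX at -0.16 (0.0171), MXD1 at 0.50 (0.0338) and MYC at -0.16 (0.0472).

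The lowest count of a tested network gene in any library was 143, for MYCL in Mv4;11. Whether depth limited the calls was not tested. MYCN in Mv4;11 and MYCL in KG-1 were at or near the floor. A gene that was not called is not shown to be unchanged.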
